A study of Homo sapiens with 4 samples.

Results

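The keratin and epidermal differentiation gene clusters were examined as 4 blocks of hg19. They were the epidermal differentiation complex (chr1:151950000-153650000), the type II keratin block (chr12:52560000-53350000), the type I keratin block with its keratin-associated protein (KRTAP) genes (chr17:38800000-39800000) and a KRTAP block on chromosome 21 (chr21:31600000-32300000). All deposited H3K9me2 peaks that overlapped a block by at least 1 base were taken, which gave 1765 of the 1000000 peaks in the series. The blocks span 4.19 Mb, and each was set against the 1 Mb on either side of it (its flanks).

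H3K9me2, dimethylated lysine 9 of histone H3, was mapped by CUT&RUN: an antibody brings a nuclease to chromatin carrying the mark, and the DNA fragments cut loose are sequenced. The cells were K562, an established human myeloid leukemia line. CUX1 knockout libraries (CRISPR with a guide against CUX1, replicates 1 and 2) were compared with control libraries (CRISPR with a guide against HPRT, replicates 1 and 2), so both groups carried an edited gene. The labels do not say whether the libraries came from separate cultures or from single clones, so p-values here rest on library-to-library spread that could be technical.

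Keratins are the intermediate filaments of epithelial cells and work as pairs of 1 type I and 1 type II chain. KRT5 with KRT14 fills basal keratinocytes, KRT1 with KRT10 their differentiating descendants, and KRT8 with KRT18 simple epithelia. KRTAP proteins cross-link the hair keratins of the hair shaft. The epidermal differentiation complex encodes the proteins of the outer skin barrier: filaggrin (FLG) and its fused S100-type relatives, involucrin (IVL), loricrin, the small proline-rich (SPRR) and late cornified envelope (LCE) proteins, and the calcium-binding S100 proteins, of which S100A8 and S100A9 are abundant in neutrophils and monocytes. Most of these genes are used mainly in skin, hair or other epithelia, and H3K9me2 is a mark of broad, mostly silent chromatin laid down chiefly by the methyltransferases EHMT1 and EHMT2. Expression was not measured here.

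In RefSeq (GRCh38.p14) the families held 180 protein-coding genes, picked by symbol and chromosome. On chromosome 1 these were 16 S100 genes from S100A10 to S100A1, 7 fused S100-type genes, 19 LCE genes, 11 SPRR genes, and SMCP, IVL, loricrin, PGLYRP3 and PGLYRP4. The keratins numbered 27 on chromosome 12, from KRT80 to KRT18 (KRT18 is itself a type I keratin), and 28 on chromosome 17, from KRT222 to KRT17. The KRTAP genes numbered 34 on chromosome 17 and 33 on chromosome 21, where the KRTAP10 and KRTAP12 families were not counted. RefSeq positions are on another build than the peaks, so no gene was placed under a peak.

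Many promoters of these families, though not to the same degree in each family, share a sequence character that played no part in choosing the blocks. Of the 152 with a RefSeq promoter, 65.1% held TATAAA (6 letters, searched on both strands) in the 250 bases before the start, against 11.1% of 27303 promoters in the whole table. The share was 88.9% among SPRR promoters, 87.9% among KRTAP promoters of chromosome 17, 73.3% among those of chromosome 21, 71.4% among fused S100-type promoters, 70.0% among keratins of chromosome 17, 50.0% among LCE genes, 42.9% among keratins of chromosome 12, 31.2% among S100 genes and 20.0% among the remaining 5 genes. KRTAP genes gave 33 (chromosome 17) and 30 (chromosome 21) of the 152 promoters, while only 14 of 27 keratins of chromosome 12 had one. The CG dinucleotide occurred a median of 1 time in the same 250 bases in the families and 11 times in all promoters. In S100 promoters the median was 4 and the highest count 24. One promoter per block is shown to make this visible, as the 120 bases before the start on the gene's own strand (the minus strand for each), with TATAAA in capitals:
FLG: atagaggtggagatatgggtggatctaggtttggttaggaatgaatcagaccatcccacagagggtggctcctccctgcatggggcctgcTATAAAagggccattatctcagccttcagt
KRT5: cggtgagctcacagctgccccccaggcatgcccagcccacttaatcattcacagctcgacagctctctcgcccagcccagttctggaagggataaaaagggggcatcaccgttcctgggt
KRT10: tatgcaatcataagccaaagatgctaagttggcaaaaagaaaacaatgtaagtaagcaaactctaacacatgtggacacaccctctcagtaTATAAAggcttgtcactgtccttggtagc
KRTAP11-1: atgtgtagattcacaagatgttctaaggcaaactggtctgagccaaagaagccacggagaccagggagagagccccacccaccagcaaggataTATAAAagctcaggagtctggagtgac
The motif began 30 bases before the start in FLG, 29 in KRT10 and 27 in KRTAP11-1, while these letters were not in the stretch shown for KRT5. KRT5 had 6 CG dinucleotides in its 250 bases, FLG and KRTAP11-1 had 1 each, and KRT10 had 0. A match is a description of the letters and not of a bound site.

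Each library was deposited as its own list of 250000 broad peaks, and the lists ended at different strengths. The lowest −log10 p was 1.49 and 1.35 in the knockouts and 1.25 and 1.27 in the controls. Peaks on chromosomes 1 to 22 and X covered 423 and 585 Mb in the knockouts and 693 and 679 Mb in the controls. The number of reads per library is unknown here, and its part in the values was not tested. Peak names of control replicate 1 carry a "sub" tag, and those of both knockouts a "cux1kd" tag, that the labels do not explain.

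The blocks held 432 and 434 peaks in the knockout libraries and 475 and 424 in the controls, so peak number overlapped between the groups. Nearly all of these peaks were weak by the caller's own measure. A q of 0.05 was reached by 0 and 0 of them in the knockouts and by 0 and 1 in the controls. The share of the whole lists that reached it was not counted, so this does not set the blocks apart. The median −log10 q of the whole lists was 0.0450 and 0.0469 in the knockouts and 0.0139 and 0.0322 in the controls. The median fold of the block peaks over the caller's local background, the authors' value per peak, was 1.94 and 1.78 in the knockouts and 1.77 and 1.72 in the controls. Knockout replicate 1 was highest, and its list also ended at the highest strength; the part of that limit in the fold was not tested.

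In the lists as deposited, all 4 blocks were less covered in both CUX1 knockout libraries than in both controls. The epidermal differentiation complex was covered to 20.8% ± 5.25 in knockout and 28.9% ± 2.99 in control cells (SD, n = 2 each, as for the other blocks), a difference of -28.0% of the control mean. The type II keratin block was covered to 15.4% ± 4.38 in knockout and 24.9% ± 0.948 in control cells (-38.2%). The type I keratin block had 23.3% ± 1.60 in knockout and 31.8% ± 8.29 in control cells (-26.7%). The chromosome 21 KRTAP block had 24.4% ± 5.82 in knockout and 37.6% ± 0.847 in control cells (-35.0%). The exact permutation p was 0.333 for each block (two-sided, 0.333 after adjustment over the 4 blocks), the smallest that 2 libraries against 2 allow. Such an order was common in the genome: of all windows of 1 Mb, 63.8% had both knockouts below both controls. The median difference of those windows was -25.3%, and from the 25th to the 75th percentile it ran from -33.1% to -15.6%. The difference in the type I block and in the epidermal differentiation complex was thus near the genome's median, and that in the type II and chromosome 21 blocks lay below the 25th percentile but not below the 10th (-41.8%). The last 2 blocks are shorter than those windows (0.79 and 0.70 Mb) and the complex is longer (1.7 Mb). No windows of their own lengths were counted, so these ranks are approximate.

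**Figure D1:**
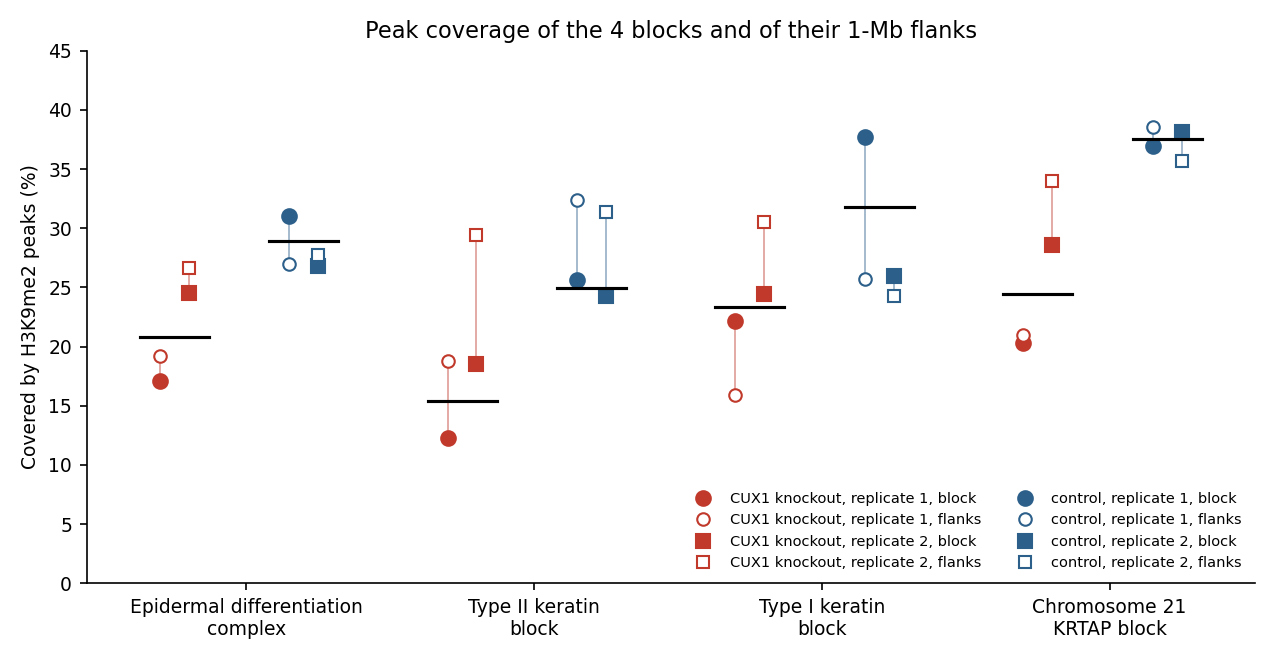
Percent of each block (filled) and of its 2 flanks together (open) under H3K9me2 peaks, for 2 CUX1 knockout libraries (red, left) and 2 control libraries (blue, right), with group means of the blocks as black bars. All filled red points lie below the filled blue points of the same block, and the type II keratin block lies below its flanks in all 4 libraries.

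Both knockouts lay below both controls in the flanks of 3 of the 4 blocks too, all but those of the type I block. The log2 ratio of a block to its flanks compares stretches read from the same list. For the epidermal differentiation complex it was -0.17 and -0.12 in the knockouts and 0.20 and -0.05 in the controls, and for the type II keratin block -0.61 and -0.67 in the knockouts and -0.34 and -0.37 in the controls. In both of these blocks the knockout libraries lay below the controls (differences of -0.22 and -0.29, exact permutation p = 0.333, the smallest possible). The groups overlapped in the complex at equal covered length and with one limit of −log10 p or of −log10 q, and in the type II block with either limit. Among 1-Mb windows set against the 1 Mb on each side, 20.2% showed that order. The type I block had 0.48 and -0.32 in the knockouts and 0.55 and 0.10 in the controls, and the chromosome 21 block -0.04 and -0.25 against -0.06 and 0.10, so the groups overlapped in both (differences of -0.24 and -0.17, exact permutation p = 0.667 each). After adjustment over the 4 blocks each p was 0.667. From the 10th to the 90th percentile, the same difference in 1-Mb windows ran from -0.30 to 0.27, a range that holds all 4 blocks.

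The epidermal differentiation complex held 701 of the peaks: 176 and 178 in the knockout libraries and 184 and 163 in the controls. Peaks covered 17.1% and 24.5% of it in the knockouts, against 31.0% and 26.8% in the controls. Its flanks were covered to 19.2% and 26.7% in the knockouts and 26.98% and 27.7% in the controls. Over the 4 libraries the block differed from its flanks by -0.303 percentage points on average (exact sign-flip permutation p = 0.875). It lay below the flanks in 3 of 4 libraries and above them in control replicate 1.

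Within the complex, coverage dipped in the middle in every library. When it was divided into 4 equal parts, the second (chr1:152375000-152799999) was the least covered in all 4 libraries. Peaks covered 10.2% and 13.7% of it in the knockouts and 21.8% and 18.9% in the controls. Relative to the flanks this was 0.530 and 0.516 in the knockouts, and 0.806 and 0.682 in the controls. The last part (chr1:153225000-153650000) was the most covered in all 4 libraries, with 21.3% and 34.6% in the knockouts and 34.5% and 32.9% in the controls. The division was made after the profile was seen and carries no test.

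The window of 100 kb with the lowest difference between groups in the complex was chr1:152100001-152200000, covered to 19.7% and 23.995% in the knockouts and 46.6% and 33.7% in the controls. Both knockouts were lower, by -18.3 points on average (SE 8.11), but limma's adjusted p over all windows was 0.268. At the other end, chr1:153500001-153600000 had 24.998% and 38.9% in the knockouts and 26.5% and 27.4% in the controls (5.01 points, limma adjusted p = 0.769). The densest window, chr1:151900001-152000000 at the edge of the block, had 29.1% and 50.6% in the knockouts and 40.4% and 38.8% in the controls, with overlapping groups.

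The strongest peak of all 4 blocks lay near the high-coordinate end of the complex, at chr1:153643043-153644640 in control replicate 2. Its −log10 p was 5.75, its −log10 q 2.80 and its fold 3.09, all as the authors' caller gave them, and it was the single peak of the blocks to reach a q of 0.05. The other libraries had peaks over part of it, covering 69.3% and 86.0% of its length in the knockouts and 61.8% in control replicate 1. Within the complex, the strongest peak of control replicate 1, chr1:153599460-153601254, was covered to 100% and 95.1% in the knockouts and 84.3% in control replicate 2. The strongest peak of knockout replicate 2, chr1:153030170-153033376, was covered to 77.8% in knockout replicate 1 and to 36.4% and 55.9% in the controls. That of knockout replicate 1, chr1:153158182-153159193, was covered to 100% in knockout replicate 2 and 0% in both controls. Strong peaks were thus shared to very different degrees. The widest peaks also differed in this: that of control replicate 1 (12065 bp, chr1:152523708-152535772) was covered to 10.0% and 0% in the knockouts and 0% in control replicate 2, and that of control replicate 2 (8930 bp) to 20.9% and 82.8% in the knockouts and 16.0% in control replicate 1.

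The type II keratin block stood below its surroundings in every library. It held 57 and 59 peaks in the knockouts and 80 and 66 in the controls, which covered 12.3% and 18.5% of it in the knockouts and 25.6% and 24.2% in the controls. The flanks had 18.8% and 29.5% in the knockouts and 32.4% and 31.4% in the controls. Block minus flanks was -6.499 and -10.97 points in the knockouts and -6.79 and -7.16 points in the controls, a mean difference of -7.85 points (exact sign-flip permutation p = 0.125, the smallest that 4 libraries allow, and 0.500 after adjustment over the 4 blocks). Among 1-Mb windows, 23.1% lay below the 1 Mb on each side, counted as one, in all 4 libraries. The block's mean log2 ratio to its flanks over the 4 libraries was -0.50, against -0.41 at the 10th percentile of those windows. The block is shorter than they are (0.79 Mb), and windows of its own length were not counted.

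In the knockouts the low-coordinate parts of the type II block were the least covered. In the second of 4 equal parts (chr12:52757500-52954999) peaks covered 8.27% and 12.5% in the knockouts and 25.9% and 26.4% in the controls. The first part had 8.86% and 14.5% in the knockouts and 14.9% and 23.9% in the controls. The last part, chr12:53152500-53350000, was the most covered in all 4 libraries, with 16.7% and 28.3% in the knockouts and 31.7% and 27.3% in the controls.

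Among windows of 100 kb in the type II block, chr12:52900001-53000000 had the lowest difference, with 2.92% and 17.7% in the knockouts and 29.8% and 22.8% in the controls (-16.0 points, SE 7.47, limma adjusted p = 0.293). Knockout replicate 1 was far lower there than knockout replicate 2. The highest difference, in chr12:53200001-53300000, was -0.792 points, with 7.60% and 26.2% in the knockouts and 20.1% and 15.3% in the controls. The densest window, chr12:53100001-53200000, had 27.5% and 23.7% in the knockouts and 33.1% and 29.3% in the controls (-5.59 points, limma adjusted p = 0.736). The widest peaks were 9031 and 8406 bp in the knockouts and 6893 and 10940 bp in the controls. The last of these, chr12:53175679-53186618 in control replicate 2, was covered to 50.1% and 76.8% in the knockouts and 36.8% in control replicate 1. The strongest peak of control replicate 2, 478 bp wide at chr12:52914706-52915183, was not covered at all in the other 3 libraries.

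The type I keratin block held 121 and 115 peaks in the knockout libraries and 118 and 105 in the controls. Coverage was 22.2% and 24.4% in the knockouts and 37.7% and 25.9% in the controls, so control replicate 1 stood apart from the other 3 libraries, and without it the difference was -2.64 points in place of -8.50. Its flanks had 15.9% and 30.5% in the knockouts and 25.7% and 24.2% in the controls. The block lay above its flanks in 3 of 4 libraries and below them in knockout replicate 2 (mean difference 3.48 points, exact sign-flip permutation p = 0.375). The knockout replicates were thus alike in the block and far apart in the flanks.

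The most and the least covered parts of the type I block were shared by the libraries, while the order of the second and last parts differed between replicates. The first of 4 equal parts, chr17:38800000-39049999, was the most covered in every library, with 27.7% and 29.5% in the knockouts and 43.7% and 32.1% in the controls. The third part, chr17:39300000-39549999, was the least covered in every library, with 16.2% and 20.7% in the knockouts and 29.5% and 21.7% in the controls. The window chr17:39000001-39100000 was both the densest and the one with the lowest difference, with 29.5% and 27.6% in the knockouts and 47.0% and 41.97% in the controls (-15.9 points, SE 9.32, limma adjusted p = 0.395). The window with the highest difference was chr17:39300001-39400000, with 23.6% and 23.5% in the knockouts and 25.5% and 12.3% in the controls (4.63 points, limma adjusted p = 0.785).

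One stretch of the type I block was under a peak in all libraries over 2945 bp, the longest such stretch in the 4 blocks (chr17:39683911-39686855). The peaks over it had −log10 p of 1.62 and 3.11 in the knockouts and 1.59 and 2.07 in the controls. Of the peaks in the type I block, it lay in the widest of knockout replicate 1 (8388 bp) and the strongest of knockout replicate 2. The longest such stretches were 1921 bp in the epidermal differentiation complex (chr1:153476538-153478458), 1023 bp in the type II block (chr12:53301097-53302119) and 1894 bp in the chromosome 21 block (chr21:32116092-32117985).

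**Figure D2:**
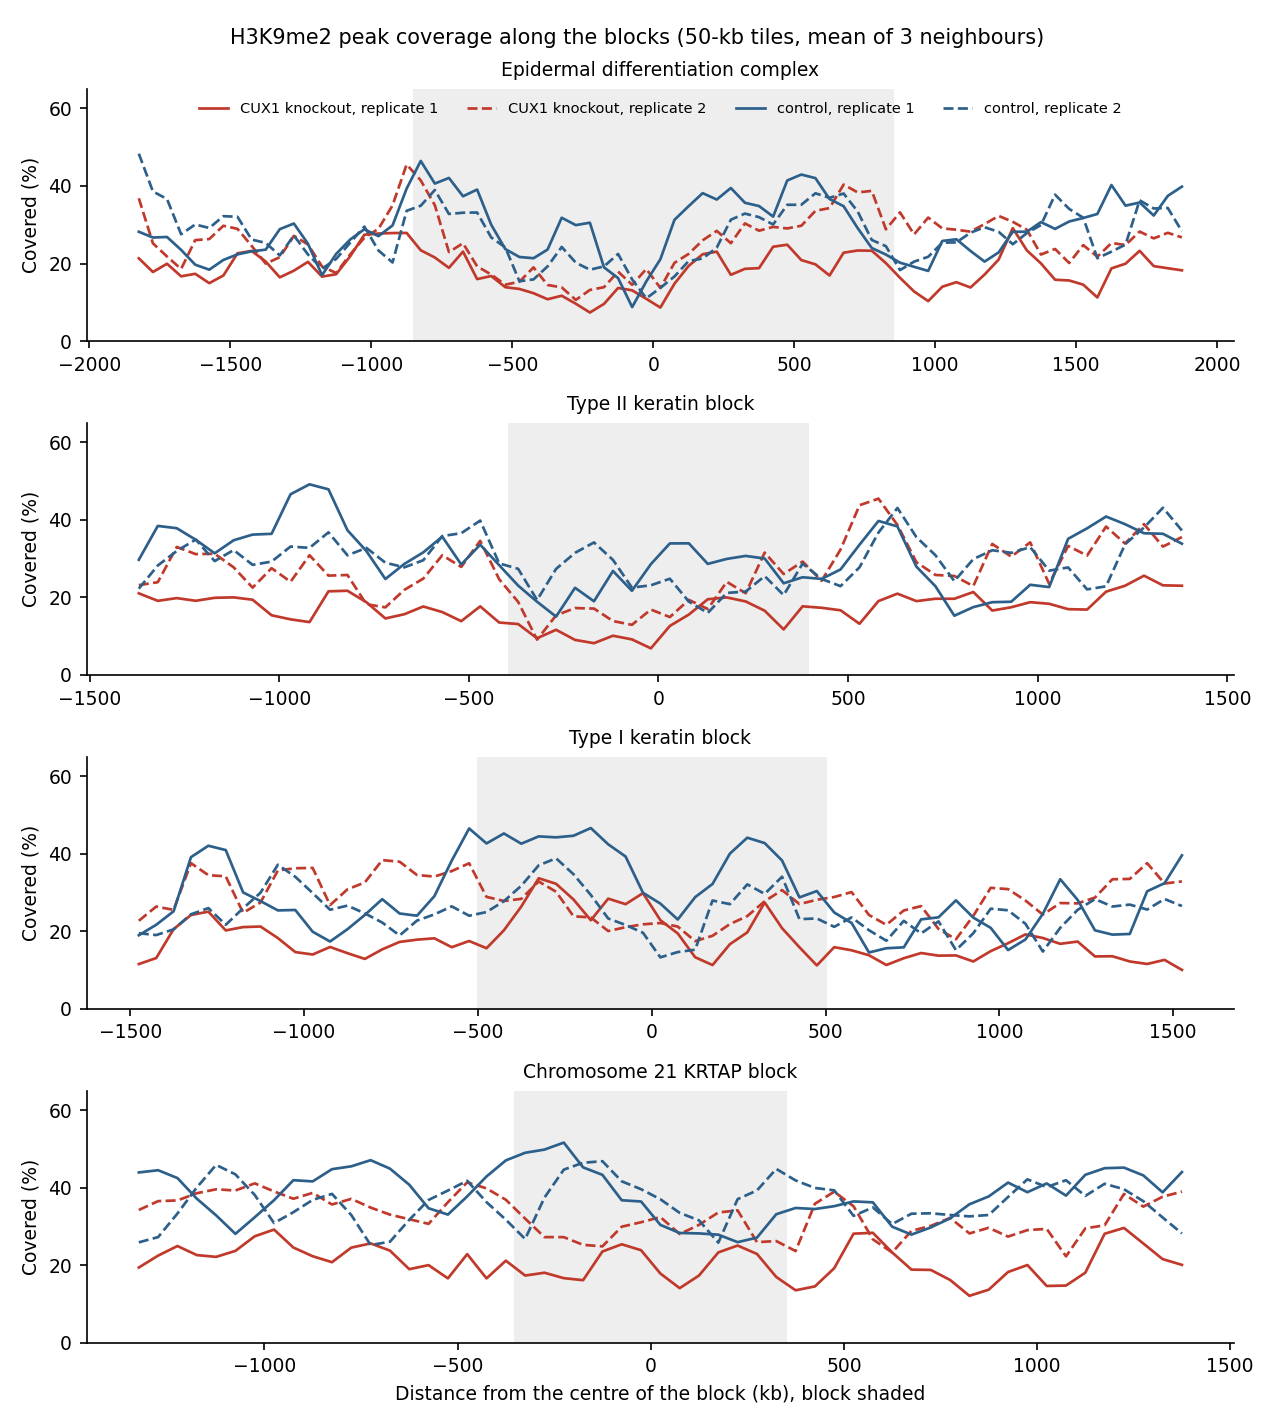
Percent of 50-kb tiles under peaks along each block (shaded) and its flanks, smoothed over 3 neighbouring tiles, for CUX1 knockout libraries (red) and control libraries (blue), replicate 1 solid and replicate 2 dashed. The dip in the middle of the epidermal differentiation complex and the high first part of the type I block appear in all 4 libraries, and the controls lie above the knockouts over most tiles before the centre of the chromosome 21 block, but not at its first tile.

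The KRTAP block of chromosome 21 had the highest mean coverage of the 4 in both groups. It held 78 and 82 peaks in the knockouts and 93 and 90 in the controls, covering 20.3% and 28.5% in the knockouts and 37.0% and 38.2% in the controls. The difference of -13.1 points was the largest of the 4 blocks in points. The flanks were covered to 20.9% and 34.0% in the knockouts and 38.6% and 35.7% in the controls, and block and flanks differed by -1.29 points on average (exact sign-flip permutation p = 0.625).

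The gap between groups was widest at the low-coordinate end of this block. In the first of 4 equal parts, chr21:31600000-31774999, peaks covered 17.9% and 28.3% in the knockouts and 50.5% and 40.5% in the controls. In the third, chr21:31950000-32124999, they covered 15.5% and 29.6% in the knockouts and 26.9% and 32.5% in the controls, and the groups overlapped. The window chr21:31700001-31800000 had the lowest difference of all windows in the 4 blocks and was also the densest of this block. It was covered to 16.2% and 25.8% in the knockouts and 52.5% and 48.5% in the controls, a difference of -29.5 points (SE 9.09) that did not pass the threshold in limma (adjusted p = 0.102). Over the alternatives with coverage in percent the adjusted p ran from 0.00411, without knockout replicate 2 (-34.3 points, with knockout replicate 1 alone in its group and assumed to vary like the controls), to 0.945, with one limit of −log10 q (-5.05 points). In chr21:32100001-32200000, the window with the highest difference, the knockouts had 27.1% and 33.7% and the controls 23.9% and 27.7% (4.64 points, limma adjusted p = 0.786).

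Of the 41 windows of 100 kb in the 4 blocks, all 41 entered the fit over 27532 windows of the genome, and limma called 0 at an adjusted p of 0.05. In the whole genome 0.0981% of windows were called, all of them falls. At an unadjusted p under 0.05, 5 of the 41 were lower and 0 higher in the knockouts, against 14.3% lower and 0.694% higher of all windows. Both knockouts lay below both controls in 24 of the 41 block windows (58.5%) and in 24 of 80 flank windows (30.0%), against 43.3% of all windows, and above both controls in 0 of the 41 and 0 of the 80, against 4.97%. The median difference was -10.2 points over block windows, -5.24 points over flank windows and -5.93 points over all windows. By block the medians were -10.2 points in the epidermal differentiation complex, -10.2 in the type II block, -10.7 in the type I block and -16.3 in the chromosome 21 block. Flank medians in the same order were -3.65, -8.73, -2.31 and -9.29 points. Neighbouring windows are not independent, and the difference between blocks and flanks in these counts was not tested.

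**Figure D3:**
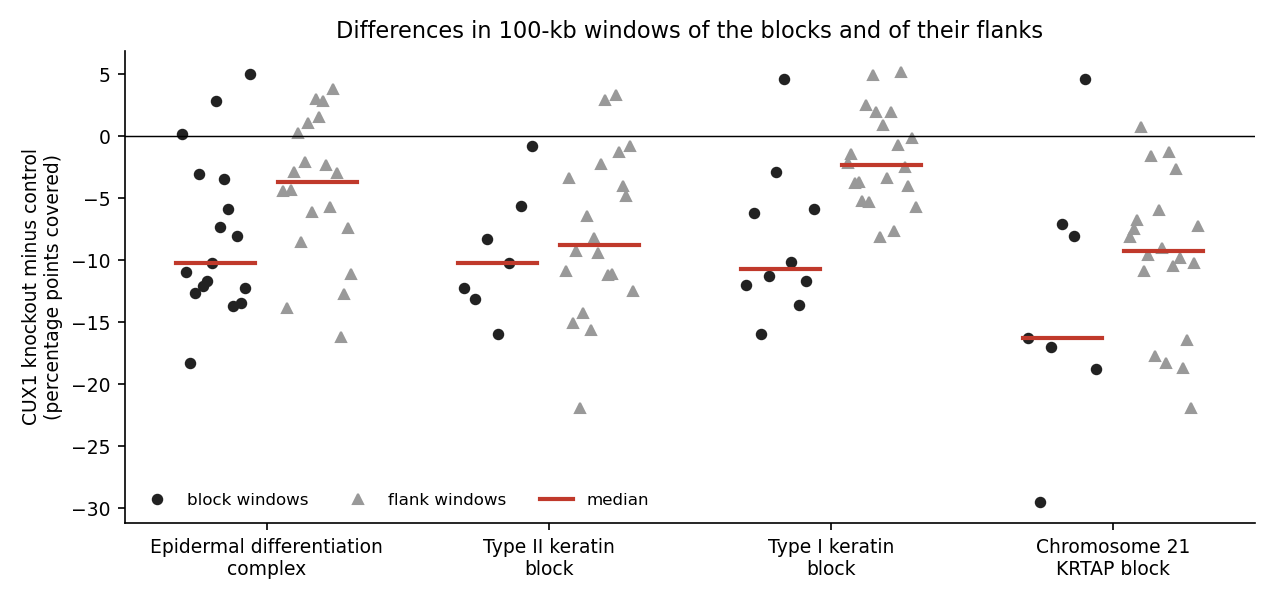
Difference in percent covered, CUX1 knockout mean minus control mean, in each 100-kb window of the blocks (black) and of their flanks (grey), with the median in red. The block medians lie between -16.3 and -10.2 points and the flank medians between -9.29 and -2.31 points.

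In 3 of the 4 blocks peaks had a lower median width in both knockouts than in both controls, an order that the whole lists also showed, with 1324 and 1900 bp in the knockouts and 2335 and 2275 bp in the controls. In the epidermal differentiation complex the median was 1241.5 and 2014.5 bp in the knockouts and 2313.5 and 2470 bp in the controls. In the type I block it was 1395 and 1839 bp in the knockouts and 2647.5 and 1998 bp in the controls. In the chromosome 21 block it was 1395.5 and 2363.5 bp in the knockouts and 2517 and 2391.5 bp in the controls. The exact permutation p was 0.333 in each of these (adjusted over the 4 blocks 0.444). In the type II block, with 1004 and 2274 bp in the knockouts and 2239 and 2440.5 bp in the controls, the groups overlapped (exact permutation p = 0.667). Peaks of at least 5000 bp numbered 14 and 26 in the blocks in the knockouts and 64 and 56 in the controls. They made up 3.24% and 5.99% of the knockouts' block peaks and 13.5% and 13.2% of the controls', near the 2.66% and 7.96% of the whole knockout lists and the 12.6% and 11.9% of the whole control lists. The smallest width in a list was 263 and 339 bp in the knockouts and 362 and 369 bp in the controls. Divided by that width, the medians kept the order in the epidermal differentiation complex only, with 4.72 and 5.94 in the knockouts and 6.39 and 6.69 in the controls (exact permutation p = 0.333). The groups then overlapped in the type I block, with 5.30 and 5.42 in the knockouts and 7.31 and 5.41 in the controls, and in the chromosome 21 block, with 5.31 and 6.97 in the knockouts and 6.95 and 6.48 in the controls. The type II block had overlapping groups on either scale. The whole-list medians, divided by the same smallest widths, were also lower in both knockouts than in both controls, the order of the complex.

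Replicates shared only part of their peaks in the blocks. A peak of the other library of the group overlapped by at least 1 bp 48.1% and 45.4% of the block peaks in the knockouts, against 59.6% and 67.9% in the controls. In the whole lists these shares were 45.9% and 43.9% in the knockouts and 59.9% and 59.5% in the controls. When at least 50% of both peaks had to overlap, the shares in the blocks were 12.3% and 12.4% in the knockouts and 18.3% and 20.5% in the controls. These were near the shares in the whole lists, 11.8% in both knockouts and 17.4% in both controls.

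By bases, the overlap within a group differed between blocks. The Jaccard index, bases shared over bases covered in either library, was 0.167 for the knockouts and 0.237 for the controls in the 4 blocks together, and 0.184 and 0.254 in the flanks. Independent placement of the same lengths would give 0.114 for the knockouts and 0.177 for the controls in the blocks. Between groups the index in the blocks was 0.174 and 0.171 for knockout replicate 1 with the controls. For knockout replicate 2 with the controls it was 0.215 and 0.220, above the index of the knockouts with each other. Independent placement gives a higher index where more is covered, and knockout replicate 1 covered the least of every block. Its value for pairs between groups was not computed, so this order of the indices was not separated from covered length. In the type II block the knockouts shared 0.0790, close to the 0.0798 of independent placement, and the controls 0.211, against 0.142 by independent placement. Over the 4 blocks, both knockouts and neither control covered 1.53% of bases, both controls and neither knockout 5.69%, and all libraries 1.57%. In the flanks the same shares were 2.11%, 4.52% and 2.27%. What independent placement would give for bases covered in a single group was not computed. Both controls covered more of every block than both knockouts, so the larger share for controls alone does not by itself mark sequence specific to them. In the type II block all libraries together covered 0.672% of bases, against 2.41% in its flanks, where independent placement would give 0.141% and 0.563%.

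The direction of the difference between groups turned when one limit was set for all lists. With one limit of −log10 p of 1.49 for all lists, the epidermal differentiation complex was covered to 17.1% and 15.8% in the knockouts and 11.3% and 11.004% in the controls, and the type II block to 12.3% and 13.9% in the knockouts and 9.17% and 11.8% in the controls. In both blocks both knockouts then lay above both controls, as did 59.1% of all 1-Mb windows under the same limit, while 3.35% had the opposite order. The type I and chromosome 21 blocks had overlapping groups under that limit, with mean differences of 3.19 and 0.0527 points. With one limit of −log10 q of 0.0335, the type I block had 16.3% and 16.4% in the knockouts and 8.60% and 11.9% in the controls, the order of 34.5% of all 1-Mb windows (1.45% had the opposite order), and the groups overlapped in the other 3 blocks. When every list was shortened to the 423 Mb of the one with the least coverage, the chromosome 21 block still had 20.3% and 17.2% in the knockouts and 25.3% and 24.4% in the controls, and the type II block 12.3% and 14.97% in the knockouts and 16.04% and 15.6% in the controls. In these 2 blocks the groups did not overlap, with differences of -6.10 and -2.16 points (exact permutation p = 0.333 each). Of all 1-Mb windows, 23.5% had that order at equal length. The type I block, with 22.2% and 16.6% in the knockouts and 22.8% and 17.4% in the controls, then differed by -0.754 points in place of -8.50, and the groups overlapped. The position of the type II block below its flanks held in all 4 libraries under each of the 5 ways of reading the lists, with log2 ratios from -0.94 to -0.30. The chromosome 21 block lay below its flanks in all 4 libraries under 2 of them, the limits on −log10 p (-2.70 points) and on −log10 q (-4.10 points), and the epidermal differentiation complex under 1, the limit on −log10 q (-2.25 points, exact sign-flip permutation p = 0.125 for each). Under the limit on −log10 p 20.6% of all 1-Mb windows lay below the 1 Mb on each side in all libraries, and 21% under the limit on −log10 q.

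**Figure D4:**
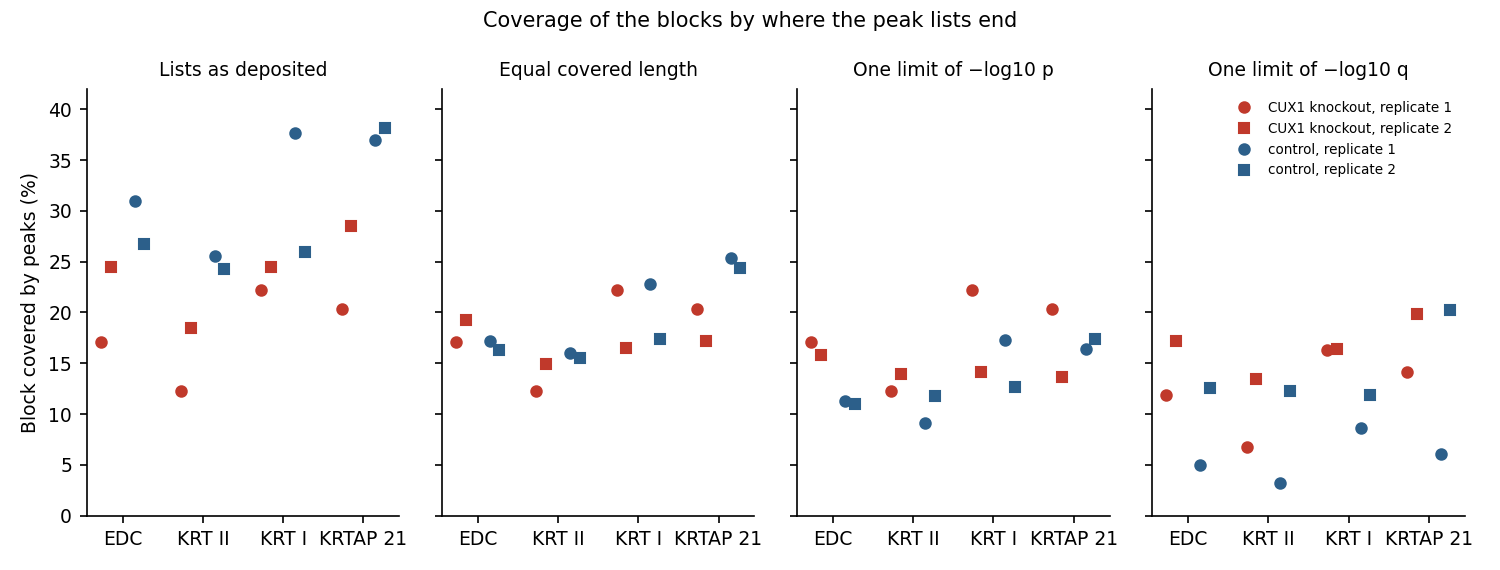
Percent of each block under peaks in CUX1 knockout (red, left) and control (blue, right) libraries for the lists as deposited, at equal covered length, with one limit of −log10 p and with one limit of −log10 q. EDC is the epidermal differentiation complex, KRT II and KRT I the keratin blocks and KRTAP 21 the chromosome 21 block. The red points lie below the blue in the first panel in all 4 blocks, and above them with one limit of −log10 p in EDC and KRT II.

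The serial numbers in the peak names rose with position in 100% of neighbouring pairs. If they number every peak called, an assumption that no label or header settles, they gave 188 and 144 called peaks per Mb in the knockouts and 162 and 148 in the controls in the epidermal differentiation complex. In the type II block they gave 120 and 148 in the knockouts and 170 and 148 in the controls, and in the type I block 202 and 164 in the knockouts and 171 and 167 in the controls. The chromosome 21 block had 206 and 181 in the knockouts and 169 and 166 in the controls. On that assumption both knockouts had more called peaks there, although the deposited peaks covered less. In the whole lists the largest serial numbers were 448404 and 381380 in the knockouts and 430436 and 386156 in the controls, so the groups overlapped. The share of genome windows with the order of the chromosome 21 block was not counted.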

How the data were processed

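H3K9me2 CUT&RUN was done in 2 CUX1 knockout and 2 control K562 libraries, grouped by their titles. The submitters' processing notes name hg19, MACS2 2.1.0, BWA 0.7.17, deepTools 3.5.1 and SAMtools 1.16.1. Caller settings and read numbers: not given in the sources used here. One broad peak list per library was deposited by the authors, giving each peak a score, a fold (a ratio to the local background) and its p and q as −log10. The score was not used.

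Covered bases were counted in the 4 blocks and their flanks of 1 Mb. Group means were compared by two-sided exact permutation tests, and blocks with flanks by an exact sign-flip test over 4 libraries. For windows of 100 kb, the share lying in peaks, in percent (chromosomes 1 to 22 and X, mean of at least 1%), was tested in R 4.3.3 with limma 3.58.1, moderated with a mean trend, and called at a Benjamini-Hochberg adjusted p of 0.05. A window belongs to a block if its midpoint does. Named windows were those with the lowest and highest difference and the highest mean in each block, and named peaks came from the widest and strongest of each block and library. Equal parts of blocks are a description without a test. Alternatives were other limits, flanks, windows and scalings and leaving out each library. On simulated data of 27489 windows, limma found 29 of 100 windows changed by 40 points and 3 of 100 changed by 20 points, with 0 false calls. In the simulation all but the densest changed windows were raised in the knockouts, and no shift across the genome was set. Most windows of the deposited lists were lower in the knockouts, so these counts may not carry over to them. The blocks, lists and measures were chosen with earlier results of these data known. How reads from near-identical KRTAP, LCE or keratin copies were placed is not stated.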

Additional observations from a re-analysis of the deposited data

How the results depend on the processing

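Both knockouts lay below both controls in every block, so leaving out 1 library could not turn the direction of the percent covered. The differences then ran from -11.8 to -4.37 points (epidermal differentiation complex), -12.6 to -6.42 (type II), -14.4 to -2.64 (type I) and -17.3 to -9.02 (chromosome 21). With one limit of −log10 p the differences in that order were 5.31, 2.65, 3.19 and 0.0527 points, with one limit of −log10 q 5.72, 2.35, 6.08 and 3.83, and at equal covered length the complex had 1.42. The cause of these turns of direction was not tested. The log2 ratio to the flanks turned to 0.0823 (complex) and 0.14 (chromosome 21) with the limit on q and to 0.0502 (type II) with the limit on p, and ranged from -0.64 to 0.16 in the type I block with 1 library left out, positive without knockout replicate 2. Block minus flanks turned to 0.440 points in the complex with flanks of 500 kb and to -0.212 in the type I block with the limit on q. With 1 library left out it ran from -1.75 to 0.311 in the complex (positive without either knockout), from -2.55 to 0.0916 in the chromosome 21 block (positive without knockout replicate 2), from -8.31 to -6.82 in the type II block and from 0.658 (without control replicate 1) to 6.65 (without knockout replicate 2) in the type I block. Median widths kept their direction in all settings run. Where both knockouts lay below both controls, leaving out 1 library could not turn that direction. Without knockout replicate 1 the width difference was only -65.75 bp in the type II block and -90.75 bp on chromosome 21. The groups overlapped in width in the chromosome 21 block with either limit and in the type I block with the limit on q.

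The median difference over block windows was 3.31 points with the limit on p, 5.06 with the limit on q and 0.0628 on the log2 scale for peaks counted by serial number. It was -1.32 points at equal length and -2.36 after quantile normalization, and ran from -12.3 to -6.24 points with 1 library left out. The count of block windows past the threshold was 0 in all settings but 1 (range 0 to 1 with 1 library left out): without knockout replicate 2 it was 1. Over the genome 27 windows passed as deposited, 0 with one limit on p or q, at equal length, after quantile normalization or with no filter, and 9, 2308, 254 and 571 without knockout replicates 1 and 2 and control replicates 1 and 2 in that order. Among named windows, chr1:152100001-152200000 turned to 6.74 (limit on p), 1.18 (equal length) and 0.32 (log2, serial number), chr12:53200001-53300000 to 5.89, 7.16 (limit on q), 2.21 and 1.89 (quantile normalization), and chr12:53100001-53200000 to 12.9, 9.68, 8.03 and 4.65 in the same order. In chr12:52900001-53000000 the difference shrank to -5.57 (limit on p, and equal length), -2.40 (limit on q) and -8.58 (without knockout replicate 1), and in chr17:39000001-39100000 to -1.05, -6.63, -6.23 (limit on p, equal length, limit on q) and -4.46 (quantile normalization). By serial number chr17:39000001-39100000 had 0.18 and chr21:31700001-31800000 0.28 (log2). With 1 library left out, chr1:151900001-152000000 ran from -10.5 to 10.95, chr1:153500001-153600000 from -1.92 to 11.9, chr12:53200001-53300000 from -10.1 to 8.49 and chr17:39300001-39400000 from -1.98 to 11.2.

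Shares of 1-Mb windows under the limits and at equal length were added after seeing the data. Leaving out 1 library leaves its group with 1, assumed to vary like the other group. The replicate numbers were not taken as pairs, since the labels do not say that they pair the libraries. The difference between replicates 1 and 2 correlated across windows at 0.0561 between the groups. With a replicate block 0 block windows passed, and 172 windows of the genome against 27 without it. With 2 libraries a group, a small change of a single block cannot be told from the spread between libraries.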
